A study of Sus scrofa with 4 samples.

Results

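The 10 genes described here carry out the first steps of fatty acid use in a cell and were taken by name, 4 for uptake (CD36, SLC27A1, SLC27A3 and SLC27A4), 3 for binding in the cytosol (FABP3, FABP4 and FABP5) and 3 for activation (ACSL1, ACSL3 and ACSL4). They are 10 of the 16192 protein-coding genes listed, and each was found once in every library. They were measured in primary subcutaneous preadipocytes of male Chinese Erhualian piglets, an indigenous fat-type breed, taken at 5 days of age. D0 was the confluent culture before any inducer. D2 followed 2 days of dexamethasone, 3-isobutyl-1-methylxanthine and insulin together, D4 followed a further 2 days of insulin alone, and D8 followed 4 more days in growth medium with serum and no added hormone. All stages shared the breed, the sex, the growth medium and the collagenase isolation, which selects no single cell type. For each stage the RNA of 3 piglets was mixed in equal amounts and made into 1 library. From these libraries the spread between piglets is unknown and no test between stages is possible. A difference between stages cannot be told apart in them from a difference between 2 libraries. The paper also ran qRT-PCR on several RNA samples of each stage, with FABP4 and the transcription factor PPARG among the genes. It reported courses like those of its sequencing. Those measurements were not used here.

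Long-chain fatty acids reach adipocytes mostly after lipoprotein lipase has released them from circulating triglyceride. CD36 is a membrane glycoprotein that binds them at the cell surface, and the SLC27 proteins (fatty acid transport proteins) are membrane proteins with acyl-CoA synthetase activity that also promote their entry. Fatty acid-binding proteins are small, abundant cytosolic carriers, of which FABP4 is the adipocyte type, FABP3 the heart and muscle type and FABP5 the epidermal type. Long-chain acyl-CoA synthetases couple the fatty acid to coenzyme A, which traps it in the cell and commits it to storage or oxidation. ACSL1 is the main adipocyte form, ACSL3 works at the endoplasmic reticulum and on growing lipid droplets, and ACSL4 prefers arachidonic acid.

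Gene levels were the FPKM deposited by the authors, that is the fragments on a gene scaled by its transcript length and by the depth of the library. The totals behind the FPKM, recovered from the values themselves, lay between 54128151 and 75387428 fragments. They are not the mapped reads given in the paper, which were highest for D4, whereas the recovered total was highest for D0. A gene was counted as reliably expressed when 3 or more of the 4 libraries held it at FPKM 1 or above, as 9191 protein-coding genes were, and was called up or down at a ratio of at least 2 on log2(FPKM + 0.01). Of the 10 genes, 9 passed this filter and SLC27A1 did not. The whole numbers of reads behind the values ran from 30 to 108163 per gene and library, and the 95% intervals given with ratios come from these reads. They cover counting error only. The culture was checked with marker genes. The 9 of 10 adipocyte markers that were found summed to 12.0 FPKM (D0), 94.6 (D2), 510 (D4) and 375 (D8). Of the 6 that passed the filter, 5 were called up in D8 vs D0, where 3.6% of all 9191 genes were called up. Among these 5, DGAT2 (0.152 FPKM at D0) and LIPE (0.808) passed the filter only through the later stages. For DGAT2 the filter alone fixed the call. The 5 of 6 progenitor markers found summed to 186, 293, 241 and 142 at the successive stages. Of the 4 that passed the filter, 0 were called up and 2 down in D8 vs D0, where 3.68% of all genes were called down. The D8 library lay closer to D0 than the D4 library did, with 331 genes called up and 338 called down in D8 vs D0 beside 958 and 810 in D4 vs D0.

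In the binding and activation families the increase was carried by FABP3, FABP4, FABP5 and ACSL1, and in uptake by CD36. These 5 genes were called up in D2 vs D0, D4 vs D2, D4 vs D0 and D8 vs D0. SLC27A3, SLC27A4 and ACSL3 were called in no comparison, and ACSL4 was called down in D8 vs D0. In D2 vs D0, 5 of the 9 genes that passed the filter were called up and 0 down, where 6.67% of all 9191 genes were called up and 10.1% down. The counts were again 5 up and 0 down in D4 vs D2, against 4.24% and 0.838% of all genes. In D8 vs D4, 0 were called in either direction, against 4.43% up and 10.1% down. The comparison of D4 with D0 gave 5 up and 0 down (10.4% and 8.81% of all genes), and that of D8 with D0 gave 5 up and 1 down (3.6% and 3.68%). The comparisons with D0 share the D0 library and are not independent. The median log2 ratio of the 9 genes was 1.15 in D2 vs D0, 1.62 in D4 vs D2, -0.12 in D8 vs D4, 3.22 in D4 vs D0 and 3.14 in D8 vs D0, where the median of all 9191 genes was -0.03, 0.09, -0.21, 0.06 and -0.18. In a culture read as a whole, more cells of a type and more RNA per cell cannot be told apart.

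**Figure D1:**
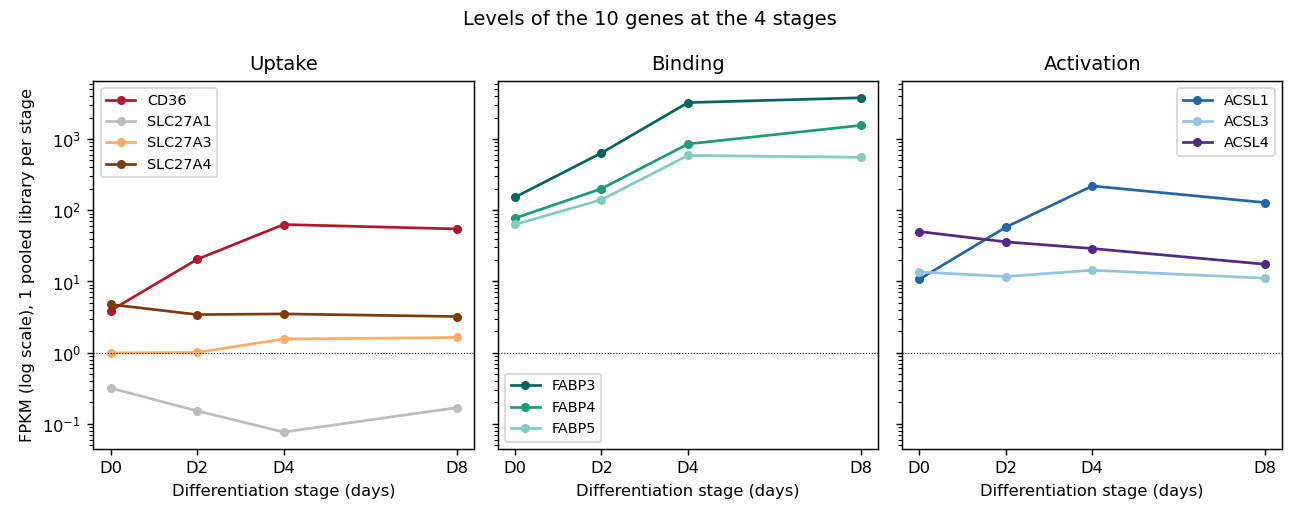
FPKM on a log axis against the differentiation stage in days for the 4 uptake, 3 binding and 3 activation genes, with 1 pooled library per stage, no error bars because there are no replicates, and a dotted line at FPKM 1. CD36, the 3 FABP genes and ACSL1 climb to D4, whereas ACSL4 goes down from 50.2 to 17.4 and SLC27A1 stays below 1 throughout.

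At the cell surface, CD36 (chr9:99685748-99782296, minus strand, Sscrofa11.1) had 3.90 FPKM (D0), 20.5 (D2), 63.1 (D4) and 54.7 (D8). Its lowest level was at D0. The D4 value was the highest as deposited, but with median-ratio scaling of the libraries D8 lay 0.01 above D4 on the log2 scale. The ratio was 5.25 in D2 vs D0 (95% interval 5.07 to 5.43), 3.08 in D4 vs D2 (3.03 to 3.13) and 0.868 in D8 vs D4 (0.857 to 0.878). The last of these was not called, and its log2 value of -0.21 was close to the median of all genes. D8 therefore kept a level 14.0-fold above D0 (13.6 to 14.5), the 40th highest ratio of the 9191 genes.

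The fatty acid transport proteins did not share this course. SLC27A4 (chr1:268773792-268788208, plus strand), the transport protein best known from intestine and skin, had 4.75 FPKM (D0), 3.42 (D2), 3.50 (D4) and 3.22 (D8). Its D0 value was the highest, and D2 and D4 were not distinguishable by counting error, with a log2 ratio of 0.03 (-0.08 to 0.15). SLC27A3 (chr4:95898780-95903599, minus strand) had 0.990, 1.01, 1.55 and 1.63 FPKM at the successive stages. As deposited, the values formed a lower pair, D0 and D2, and a higher pair, D4 and D8. Within each pair the interval of the log2 ratio held 0 (-0.31 to 0.36 and -0.19 to 0.34). With median-ratio scaling the log2 ratio of SLC27A3 in D8 vs D4 went from 0.07 to 0.28. SLC27A1 (chr2:60203374-60235689, minus strand), the transport protein typical of muscle and fat, was listed at 0.317, 0.152, 0.0766 and 0.168 FPKM. These values rest on 126, 44, 30 and 48 reads, and at this level it had no part in the calls.

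Within a library, CD36 was 0.820 times as abundant as SLC27A4 at D0 (95% interval 0.778 to 0.865). It was 5.98 times as abundant at D2 (5.62 to 6.36), 18.0 times at D4 (17.1 to 18.9) and 17.0 times at D8 (16.0 to 18.1), on the FPKM scale. Such ratios do not depend on how libraries are scaled to each other. By FPKM, CD36 was below SLC27A4 at D0 and above it from D2 on, and the intervals for D4 and D8 overlapped. FPKM divides by transcript length, recovered here as 14502 bases for CD36 and 5736 for SLC27A4. On reads recovered with these lengths CD36 was above SLC27A4 at D0 too, at 4265 against 2056. Both lengths are the smallest that gave whole reads, and the true reads may be a whole multiple that differs between genes. The order of the genes by reads is therefore uncertain. The order of genes by FPKM, here and below, depends on transcript lengths. SLC27A4 held 78.4% of the summed FPKM of the 3 transport protein genes (D0), 74.7% (D2), 68.2% (D4) and 64.1% (D8), while the share of SLC27A3 went from 16.3% to 32.5%. Of the 10 other genes found for the 3 families and CD36 only SCARB1, SCARB2 and ACSL5 passed the filter. SCARB1, a scavenger receptor of the CD36 family that takes up cholesterol from high-density lipoprotein, had 2.26, 2.12, 4.82 and 2.73 FPKM and was called up in D4 vs D2 and D4 vs D0. SCARB2, a lysosomal membrane protein of the same family, had 16.2, 18.7, 13.7 and 16.4 FPKM and was called in no comparison.

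The 3 fatty acid-binding protein genes had the highest FPKM of the 10 at all 4 stages, always in the order FABP3, FABP4, FABP5. Behind them came ACSL4, ACSL3, ACSL1, SLC27A4 and CD36 at D0, and ACSL1, CD36, ACSL4, ACSL3 and SLC27A4 at both D4 and D8, with SLC27A3 and SLC27A1 last in every library. FABP3 (chr6:87943003-87950708, minus strand) had 153 FPKM (D0), 638 (D2), 3254 (D4) and 3805 (D8). It ranked 389th among protein-coding genes by FPKM at D0 and 9th at D8. The ratio was 4.18 in D2 vs D0 (4.05 to 4.31), 5.10 in D4 vs D2 (5.01 to 5.19) and 1.17 in D8 vs D4 (1.16 to 1.18). From D0 to D8 it rose 24.9-fold (24.2 to 25.6), the 19th highest ratio of all genes and the highest of the 10.

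FABP4 (chr4:55096400-55101209, plus strand) had 77.5 FPKM (D0), 201 (D2), 853 (D4) and 1557 (D8). Each stage lay above the stage before it. The ratio was 2.59 in D2 vs D0 (2.50 to 2.68), 4.25 in D4 vs D2 (4.16 to 4.35) and 1.83 in D8 vs D4 (1.81 to 1.85). The last ratio was not called as the files stand, but its log2 value of 0.87 was the 515th highest of 9191 genes, and it became 1.08 when the libraries were scaled to a common median ratio. Of the 9 genes that passed the filter FABP4 had the largest ratio over the last interval, and it ended 20.1-fold above D0 (19.5 to 20.7).

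FABP5 (chr4:55277831-55282585, minus strand) had 63.1, 141, 589 and 555 FPKM at D0, D2, D4 and D8. D4 and D8 were close, with a ratio of 0.942 (0.925 to 0.959), while D4 was 9.33-fold above D0, a log2 ratio of 3.22 (3.17 to 3.27). FABP4 and FABP5 lie on the same chromosome in opposite orientation, and their levels parted after D4. FABP4 was 1.23 times as abundant as FABP5 at D0 (1.18 to 1.28), 1.43 times at D2 (1.38 to 1.48), 1.45 times at D4 (1.43 to 1.47) and 2.81 times at D8 (2.76 to 2.85). As shares of the summed FPKM of the 3 genes, FABP3 held 52.0%, 65.2%, 69.3% and 64.3% at the 4 stages, FABP4 26.4%, 20.5%, 18.2% and 26.3%, and FABP5 21.5%, 14.3%, 12.5% and 9.38%. FABP5 gave way at every stage, and FABP4 returned at D8 to the share it had at D0. Together the 3 genes made up 0.0715% of the summed FPKM of all protein-coding genes (D0), 0.258% (D2), 1.18% (D4) and 1.43% (D8). FABP1 and PMP2, the other 2 genes of the family found under a protein-coding name, were at 0.0878 FPKM or less in every library.

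**Figure D2:**
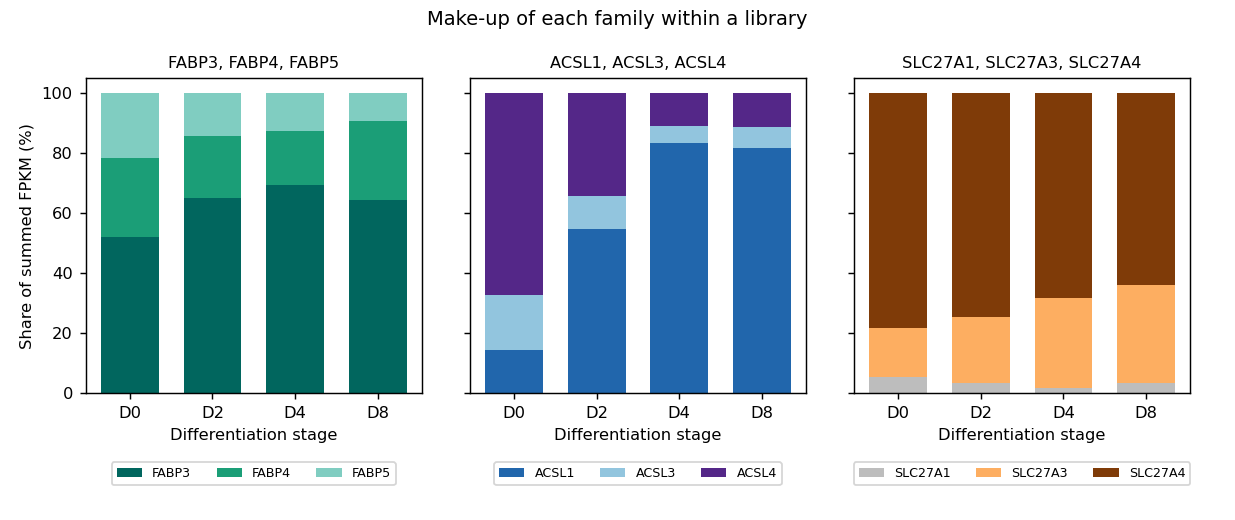
Share in percent of the summed FPKM of the 3 FABP, 3 ACSL and 3 SLC27 genes held by each gene in the D0, D2, D4 and D8 libraries, 1 pooled library per bar. ACSL1 takes over from ACSL4, at 14.4% of the 3 ACSL genes at D0 and 83.5% at D4, whereas FABP3 stays the largest share of its family at all stages.

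The muscle marker genes were checked because FABP3 is the heart and muscle type. The 3 of 8 that were found, MYOG, ACTA1 and CKM, summed to 0.507 FPKM at D0 and to 0.460 or less at the later stages, and MYOG was listed at 0 in D0, D4 and D8. CD36, FABP4 and FABP5 are also known from endothelial cells or macrophages. Of the 7 endothelial markers found, which summed to 1.20 to 2.81 FPKM with the highest value at D0, PECAM1 alone passed the filter, and the defining CDH5 was listed at 0 in D0, D2 and D8. The 7 macrophage markers found summed to 4.41 FPKM (D0), 8.97 (D2), 9.71 (D4) and 6.53 (D8), with CD14 the highest of them in each library. CD14 was called up in D4 vs D0, as 10.4% of all genes were. CD163 was called up in D2, D4 and D8 vs D0 (6.67%, 10.4% and 3.6% of all genes). It had 0.270 FPKM at D0 and passed the filter only through the later stages, so that the filter fixed these calls. PTPRC, which defines white blood cells, was at 0.0712 FPKM or less. The part of such cells in the levels of CD36, FABP4 and FABP5 was not tested.

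Among the synthetases, ACSL1 (chr15:45866858-45936327, minus strand) had 10.7 FPKM (D0), 57.8 (D2), 219 (D4) and 128 (D8). It was lowest at D0, and D4 stood above both D2 and D8. The ratio was 5.37 in D2 vs D0 (5.19 to 5.57), 3.80 in D4 vs D2 (3.73 to 3.86) and 0.584 in D8 vs D4 (0.577 to 0.592). At D4 it was 20.4-fold above D0 (19.8 to 21.1) and at D8 11.9-fold (11.5 to 12.3).

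ACSL4 (chrX:89760863-89838103, minus strand) went down while ACSL1 rose to D4, and over the last interval both had log2 ratios below 0 (-0.73 and -0.78). Its level was 50.2 FPKM (D0), 35.9 (D2), 29.0 (D4) and 17.4 (D8), lower at each stage than at the stage before. No single step reached the threshold, with log2 ratios of -0.48, -0.31 and -0.73, but over the whole course the level fell by 1.52 on the log2 scale (95% interval -1.59 to -1.47). Its ratio in D8 vs D0 was the 75th lowest of the 9191 genes. ACSL3 (chr15:124741986-124816955, plus strand) had 13.6, 11.7, 14.4 and 11.1 FPKM, with a D4 level 1.06 times that of D0 (1.02 to 1.10), and was called in no comparison.

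ACSL1 therefore moved from last to first of the 3 synthetases between D0 and D2, while ACSL4 stayed above ACSL3. The FPKM of ACSL1 was 0.214 times that of ACSL4 at D0 (0.206 to 0.222), 1.61 times at D2 (1.56 to 1.66), 7.56 times at D4 (7.37 to 7.76) and 7.35 times at D8 (7.07 to 7.64). ACSL4 held 67.3% of the summed FPKM of the 3 genes at D0, and ACSL1 held 54.8% at D2, 83.5% at D4 and 81.8% at D8. ACSL5, a synthetase of the same family that is best known from intestine and liver, was not among the 10. It had 31.4, 27.8, 28.7 and 29.9 FPKM and was called in no comparison. With ACSL5 and the near-absent ACSL6 in the sum, the share of ACSL1 was 10.1%, 43.4%, 75.3% and 68.7%, so that the takeover by ACSL1 stood and ACSL5 was second to ACSL4 at D0 and second to ACSL1 at D8.

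**Figure D3:**
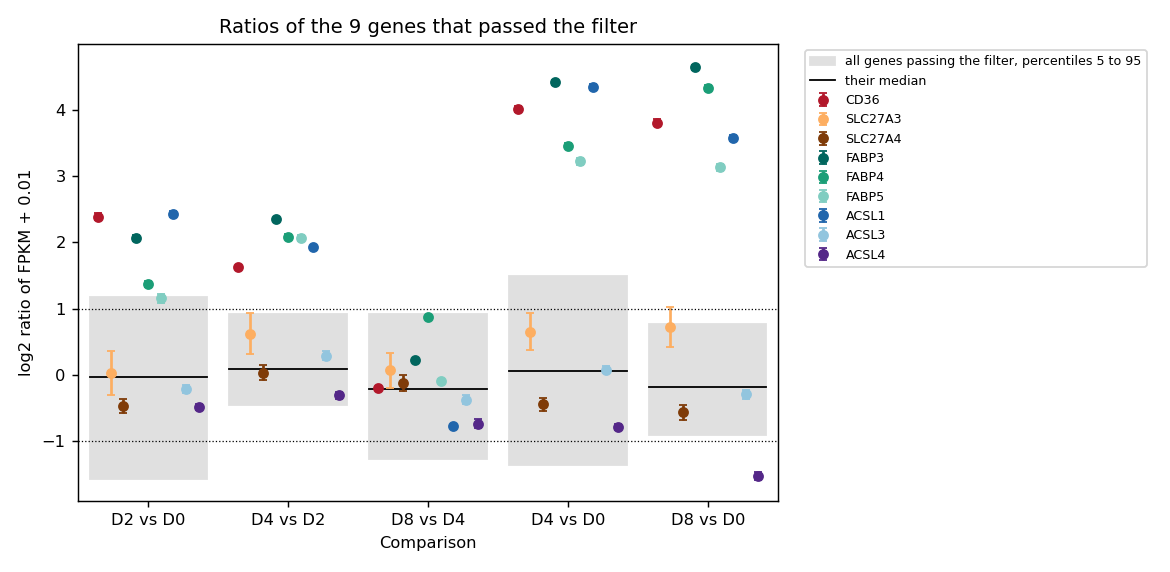
The log2 ratio of FPKM + 0.01 in the 5 comparisons for the 9 genes that passed the filter, with 95% counting intervals as bars, the 5th to 95th percentile of all 9191 genes as a grey block, their median as a black line and the threshold as dotted lines. CD36, FABP3, FABP4, FABP5 and ACSL1 lie above the upper dotted line in all comparisons except D8 vs D4, where the 9 genes lie between -0.78 and 0.87.

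The 5 genes called up did not share their timing. CD36 and ACSL1 took the larger step over the interval with the hormone cocktail, with log2 ratios of 2.39 and 2.43 in D2 vs D0 and of 1.62 and 1.92 in D4 vs D2. The 3 binding protein genes took the larger step over the interval with insulin alone. Their log2 ratios were 2.06 (FABP3), 1.37 (FABP4) and 1.15 (FABP5) in D2 vs D0 and 2.35, 2.09 and 2.07 in D4 vs D2. For each of the 5 genes the intervals of its pair of steps did not overlap, and the larger step was the same with both other scalings of the libraries and both other pseudocounts. The steps of FABP3 came closest, at 2.17 and 2.28 with protein-coding sum scaling. Both steps share the D2 library, and counting intervals do not cover an offset of that library. Over the last interval ACSL1 had a log2 ratio of -0.78 and FABP4 of 0.87, so that FABP4 had 3.89 times the FPKM of ACSL1 at D4 (3.85 to 3.93) and 12.2 times at D8 (12.0 to 12.3).

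The genes nearest to CD36, FABP4 and ACSL1 were sought over the 3 log2 ratios to D0 among all genes that passed the filter, the 10 left out. Nearest to CD36 were CALCRL, a receptor subunit for adrenomedullin and calcitonin gene-related peptide, at a Euclidean distance of 0.350, IQGAP2 at 0.577 and GPD1, the cytosolic glycerol-3-phosphate dehydrogenase, at 0.642. Nearest to FABP4 were CIDEA, a lipid droplet protein, at 0.602, LOC110256045 at 0.813 and FCN2, a secreted ficolin, at 0.834. Nearest to ACSL1 were ITGA7, an integrin alpha subunit, at 0.360, COL5A3, a fibrillar collagen chain, at 0.669 and CALCRL again at 0.679. The CIDEA levels of 2.75, 9.74, 40.2 and 54.3 FPKM, like those of FABP4, were highest at D8, whereas the ITGA7 levels of 2.23, 10.6, 48.9 and 21.7 FPKM were highest at D4, like those of ACSL1. With 4 libraries such likeness is a description of 3 ratios.

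The genes around these steps were taken from lists. Of the 8 genes of fatty acid supply that passed the filter, 2 were called up and 2 down in D2 vs D0 (6.67% and 10.1% of all genes) and again in D4 vs D0 (10.4% and 8.81%), and in D8 vs D4 2 were called up and 3 down (4.43% and 10.1%). With either other scaling, tried for these lists after the data were seen, 1 was called down in D2 vs D0. VLDLR moved there from -1.01 to -0.98 (median ratio) or -0.90 (protein-coding sum). Of all genes, 9.42% (median ratio) and 8.68% (protein-coding sum) were called down in D2 vs D0. LPL, the lipoprotein lipase that releases fatty acids at the vessel wall, had 19.2, 94.7, 250 and 142 FPKM, the largest rise of the list from D0 to D4 (log2 ratio 3.70). CAV1, the caveolin of the plasma membrane, had 294 FPKM (D0), 30.6 (D2), 31.4 (D4) and 221 (D8), the largest fall (log2 ratio -3.23). It was low at D2 and D4 and high at both ends, and thus shared its course with neither CD36 nor the FABP genes.

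Downstream of activation, 12 of 17 listed genes for acyl-CoA binding and acyl-CoA thioesterases were found and 10 passed the filter. In D4 vs D0, 1 of the 10 was called up and 2 down, where 10.4% and 8.81% of all genes were, and the median log2 ratio was -0.02 beside 0.06 for all genes. With protein-coding sum scaling 2 were called up, ACOT8 being the second at 1.02, where 11.1% of all genes were called up. DBI, the acyl-CoA-binding protein that carries the product of the synthetases, was the gene called up, at 204, 392, 1293 and 654 FPKM. ACOT9, a mitochondrial thioesterase, had the largest fall, at 30.2, 12.1, 10.6 and 23.8 FPKM. Of the 6 acyl-CoA synthetases outside the long-chain family that passed the filter, 4 were called up and 0 down in D4 vs D0 (10.4% and 8.81% of all genes) and 3 up and 0 down in D8 vs D0 (3.6% and 3.68%). ACSS3, a mitochondrial synthetase for short-chain acids, had the largest ratio, at 0.189, 1.65, 3.03 and 1.71 FPKM. With its D0 level below 1 FPKM, ACSS3 passed the filter only through the later stages, so that the filter fixed its calls against D0. ACSF3, at 0.624 FPKM at D0, also passed only through the later stages. The 2 of the 6 that were not called up in D4 vs D0 were ACSS1, with a log2 ratio of 0.88, and ACSF2, with 0.01 (-0.05 with median-ratio scaling).

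All 7 transcription factors that are known to act on genes of fatty acid handling and that passed the filter had lower levels at D8 than at D4 under each scaling. A fall over this interval was common, since as deposited 3224 of all 9191 genes had a log2 ratio above 0 and the median was -0.21. PPARA (-0.44) and NR1H3 (-0.39) lay closest to that median among the 7. Of the 7, 5 were called up in D4 vs D0 and 0 down (10.4% and 8.81% of all genes), and 5 were called down in D8 vs D4 and 0 up, against 10.1% of all genes called down there. With median-ratio scaling, an alternative added after the data were seen, 4 of the 7 were called down in D8 vs D4 and 4 up in D4 vs D0. With that scaling 5.94% of all genes were called down in D8 vs D4 and 9.64% up in D4 vs D0. PPARG, the nuclear receptor that drives adipocyte genes, FABP4 and CD36 among them, had 2.95 FPKM (D0), 26.4 (D2), 51.9 (D4) and 25.8 (D8), the largest rise of the list. Its ratio in D8 vs D4 was -1.01 on the log2 scale (-0.80, and no longer called, with median-ratio scaling), where CD36 had -0.21 and FABP4 0.87. It kept a log2 ratio of 3.12 in D8 vs D0.

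**Figure D4:**
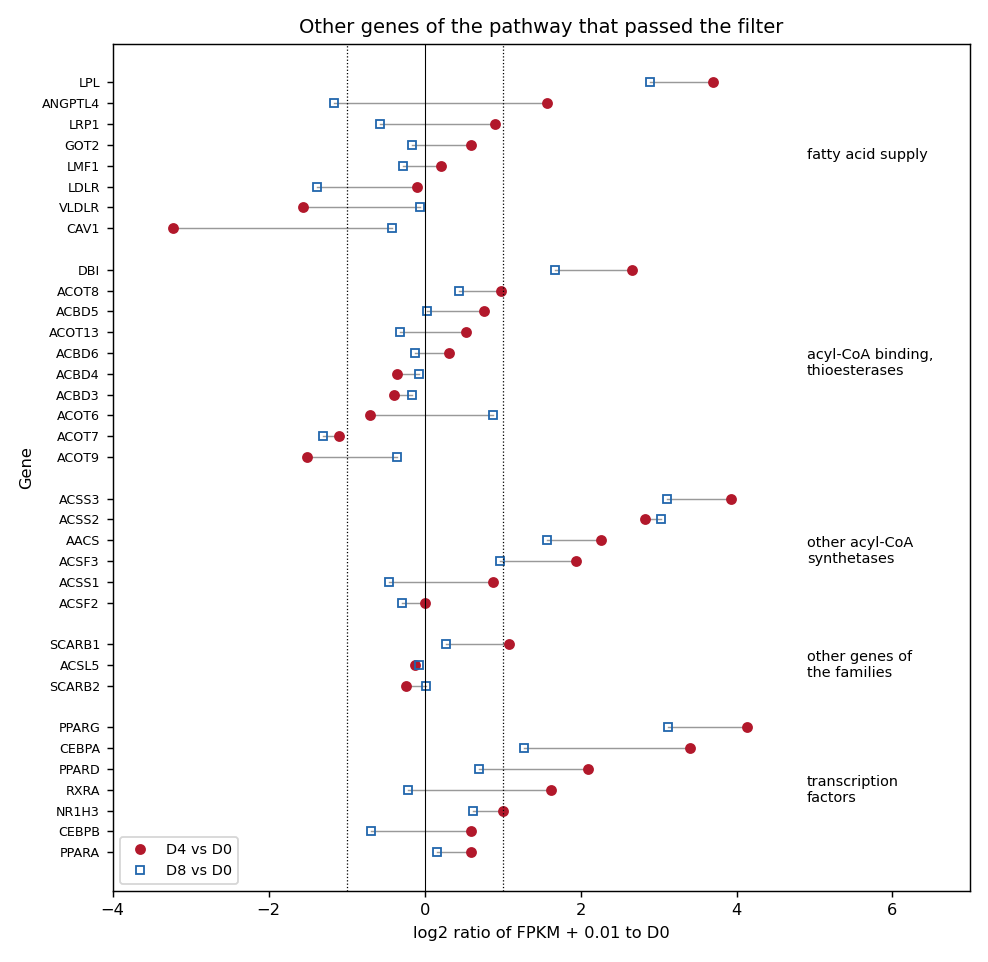
The log2 ratio of FPKM + 0.01 to D0 at D4 (filled circles) and D8 (open squares) for the listed genes of fatty acid supply, acyl-CoA binding and thioesterases, other acyl-CoA synthetases, the other genes of the families and transcription factors that passed the filter, with dotted lines at the threshold. In the transcription factors every square lies left of its circle, and CAV1 lies at -3.23 at D4 and -0.41 at D8.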

How the data were processed

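Reads were trimmed by the authors, aligned to the pig genome Sscrofa11.1 with HISAT2 2.0.5 and deposited as FPKM for 22944 genes. SRPBM (junction reads scaled by the reads mapped) was deposited for 8623 circRNAs, from BWA-MEM and CIRI with at least 2 junction reads. The libraries were strand-specific and depleted of ribosomal RNA. The tool that counted fragments is not given in the sources used here.

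The totals behind FPKM (75387428 for D0, 54987801 for D2, 74358922 for D4 and 54128151 for D8) were recovered from the deposited FPKM and the genomic lengths of tRNA, miRNA and pseudogene rows. For each gene, the smallest length at which the FPKM of all 4 libraries gave whole reads (tolerance 0.005) set its reads. True reads may be a whole multiple, which can differ between genes, so that intervals may be too wide and reads cannot be ranked between genes. The 95% intervals are exact conditional binomial between stages and normal approximations on the log scale within a library. Reads without molecular identifiers are not independent molecules. The scripts were tested on simulated data.

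All 10 genes were paired with RefSeq entries of the same build by symbol and position. Genes and lists were chosen with earlier results of these data known. Named were the 10 genes, other genes of their families with FPKM of at least 1 in a library, the largest rise and fall from D0 to D4 in each list, the 3 genes nearest to CD36, FABP4 and ACSL1, and circRNAs with at least 5 junction reads. Single marker genes, gene neighbours and the other genes at low FPKM were named after their values were seen. Listed genes not found under a protein-coding name were not analysed here. The alternatives were a pseudocount of 0.1 or 1, median-ratio scaling, scaling to the summed protein-coding FPKM, no filter, a ratio of 1.5 and wider family sums. Python 3.11.15, pandas 2.3.3, numpy 2.4.6, scipy 1.17.1 and matplotlib 3.10.9 were used.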

Additional observations from a re-analysis of the deposited data

Results flagged for a closer look

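The circRNAs inside these genes are a readout that the comparisons above did not use. In all, 9 circRNAs lay within the 10 genes on the same strand, with 9 junction reads (D0), 0 (D2), 31 (D4) and 15 (D8), out of 53207, 43989, 51074 and 37480 junction reads in the libraries. Those with at least 5 junction reads after D0 and none at D0 are given here, so that their rise from D0 was set by this choice. ssc_circ_0007361 in ACSL3 went the other way, with 9 junction reads at D0 and 0 later, and is described below. ssc_circ_0004911 in CD36 (chr9:99694780-99703394) had 13 junction reads at D4 and was listed at 0 in the other 3 libraries. ssc_circ_0007481 in ACSL1 (chr15:45877613-45882359) had 9 at D4 and 3 at D8. In ACSL4, ssc_circ_0008524 (chrX:89769404-89773053) had 6 at D4 and ssc_circ_0008525 (chrX:89769404-89789220) had 5 at D8, each of them listed at 0 in the other libraries. The deposited values are SRPBM, and these junction reads were computed from them by taking the smallest value of each library as 2 reads. The numbers are small, circRNAs under 2 junction reads were not called by the authors, and the differences between stages were not tested.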

How the results depend on the processing

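With a pseudocount of 0.1 or 1, or with the libraries scaled to their summed protein-coding FPKM, each of the 10 counts of genes called up or down stayed within 1.5 times its value. Median-ratio scaling changed 1 count, calling 1 gene (FABP4) up in D8 vs D4, where 6.38% of all genes were called up with that scaling. Without the filter 3 counts changed, each by SLC27A1, to 1 down in D2 vs D0, 1 up in D8 vs D4 and 1 down in D4 vs D0. Of all 16192 genes, 17.0%, 11.0% and 14.7% were called in these directions without the filter. At a ratio of 1.5 the counts in D8 vs D4 became 1 up (FABP4) and 2 down (ACSL1 and ACSL4), against 9.92% and 25.9% of all genes. In D4 vs D0, 1 was down (ACSL4), against 17.5% of all genes. SLC27A3 made it 6 up in place of 5 in D4 vs D2, D4 vs D0 and D8 vs D0, against 11.7%, 22.0% and 6.92% of all genes. No called ratio changed sign. Median-ratio scaling added 0.21 to each log2 ratio in D8 vs D4 and 0.16 in D8 vs D0, and turned the sign of 3 uncalled ratios in D8 vs D4, to 0.01 for CD36, 0.09 for SLC27A4 and 0.12 for FABP5, and of SLC27A4 in D4 vs D2, to -0.06 (-0.04 with protein-coding sums, which added 0.11 to each ratio in D2 vs D0). Over all genes it moved the share of called genes that were up from 30.5% to 51.8% in D8 vs D4 and from 49.5% to 66.3% in D8 vs D0. Without the filter 2038 genes were up and 2755 down in D2 vs D0, beside 613 and 932. No paired analysis was possible because each stage has 1 pooled library. The same holds for leaving out a replicate. Depth limits SLC27A1, with 30 to 126 reads, and the circRNAs.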

Other observations

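The gene neighbourhood of the binding protein genes held an annotated lncRNA, LOC106510641 (chr6:87950805-87951743, plus strand), whose start lies 96 bases from FABP3 on the opposite strand. It had 1.44 FPKM (D0), 1.68 (D2), 4.79 (D4) and 6.61 (D8), on 69, 59, 227 and 228 reads. Like FABP3 it was lowest at D0 and highest at D8, with log2 ratios of 1.73 in D4 vs D0 and 2.19 in D8 vs D0 where FABP3 had 4.41 and 4.64. On the other side of FABP3, ZCCHC17, at a distance of 145 bases, had 24.2, 35.7, 30.9 and 22.2 FPKM with its highest level at D2. PMP2, the myelin fatty acid-binding protein, lies between FABP4 and FABP5 on chromosome 4, 15.0 kb from FABP4 and 136 kb from FABP5. It was listed at 0.0878, 0.00802, 0.0593 and 0.0733 FPKM on 15, 1, 10 and 9 reads, far below both genes beside it. These neighbours were chosen after their values were seen.

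The circRNAs of ACSL1 and ACSL4 shared ends. The 3 circRNAs listed in ACSL1 all had 45877613 on chromosome 15 as their lower coordinate, and the 2 in ACSL4 both had 89769404 on chromosome X. ssc_circ_0007361 in ACSL3 (chr15:124797529-124799170) had 9 junction reads at D0 and was listed at 0 at D2, D4 and D8, while ACSL3 itself had 13.6, 11.7, 14.4 and 11.1 FPKM.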
